A study of Mus musculus with 13 samples.

Results

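The brains of R6/2 mice given a combination of 3 drugs were compared with the brains of wild type mice given none. R6/2 is a transgenic model of Huntington's disease. Its transgene is exon 1 of human HTT with an expanded CAG repeat, driven by the human gene's own promoter rather than by one specific to neurons. The comparison takes 6 of the 13 arrays of the study, chosen by their titles alone: 3 arrays of R6/2 with the triple treatment and 3 arrays of untreated wild type. The treatment was tacrine at 2.7 mg/kg per day, a cholinesterase inhibitor, with moclobemide at 10 mg/kg per day, an inhibitor of monoamine oxidase A, and creatine at 1% w/v in the mash. Tacrine began at 5 weeks of age, and a harvest age of 8 weeks is given for 1 untreated wild type sample only. RNA came from whole brain hemispheres, so striatum, cortex and all other regions were read together. The drugs also appear in the descriptions of untreated samples, and only the titles tell treated from untreated. Another 3 arrays of treated wild type and 4 of untreated R6/2 are set beside the result for single genes. The 2 groups compared differ in genotype and in treatment at once, and within this comparison the effects of the 2 cannot be told apart.

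In Huntington's disease the projection neurons of the striatum are affected early. They use GABA and release the peptides enkephalin, substance P and dynorphin, and they respond to dopamine. Mutant huntingtin fragments enter the nucleus and disturb transcription, and loss of neuronal transcripts, those of the striatum above all, is a known feature of R6/2 brain before neurons die.

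Treated R6/2 brain differed from untreated wild type brain in 248 of 7453 probe sets tested (3.33%), with 72 higher (0.966%) and 176 lower (2.36%). The falls included genes of striatal projection neurons, with a 2.87-fold lower enkephalin precursor signal, activity-induced and clock transcription factors such as Egr2, Nr4a1, Per1 and Dbp, and the peptides Sst, Cck and Npy. Genes of calcium signalling, transmitter release, myelin, the cortex and metallothioneins were also among them. The rises were fewer and included Atad2b, 2 subunits of the transcription factor NF-Y, Igf2 and the interferon-induced Ifitm3. The lists of oxidative phosphorylation, glycolysis and microglia genes had no member past the threshold, as given with their unadjusted counts below.

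A probe set is a group of short probes for 1 transcript, and its value is a brightness (signal) on a linear scale. Differences are given as log2 of treated R6/2 over untreated wild type with the standard error of the fit, and a probe set passed when its limma p-value, adjusted over all probe sets tested, was under 0.05. The 248 probe sets include 221 that are annotated to a single gene, and these name 211 genes, 59 of them higher and 152 lower. Of the 248, 10 were at least doubled and 42 at least halved. The median size of the log2 change was 0.73 among them and 0.19 over all probe sets tested, where 4127 estimates lay above 0 and 3326 below, with a median of 0.04. With each array scaled to a common median the split became 42 higher and 239 lower. At an unadjusted p under 0.05 there were 1431. In 2016 probe sets (27.0%) the 3 values of one group all lay above the 3 of the other, 1054 of them higher in treated R6/2 (14.1%) and 962 lower (12.9%). All 248 that passed were of this kind.

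**Figure D1:**
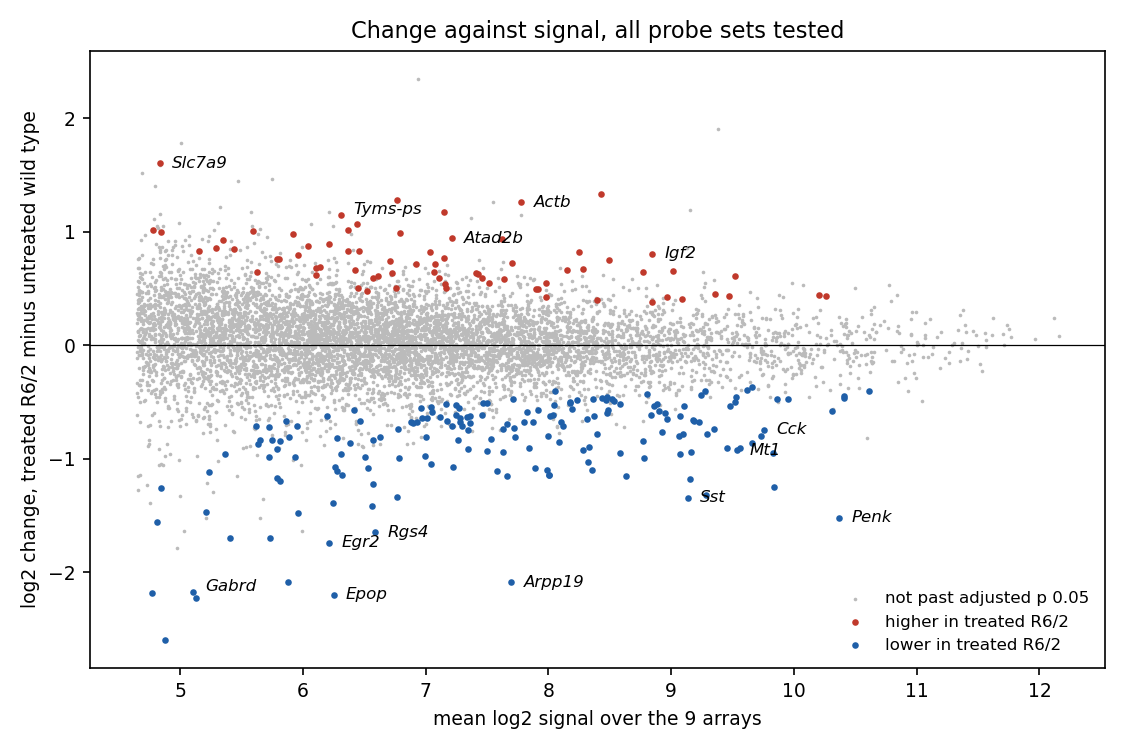
Each point is 1 of the 7453 probe sets tested; the horizontal axis is the mean log2 signal over the 9 arrays of the fit and the vertical axis is the log2 change of treated R6/2 minus untreated wild type. Coloured points passed the threshold, 72 above and 176 below the zero line, and Penk stands apart as a bright probe set with a change of -1.52.

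Median signal per array was 42.1 to 45.1 in treated R6/2 and 41 to 42 in untreated wild type. The description of treated R6/2 array 1 carries the number of an untreated R6/2 array in place of that in its own title. All 66 control rows of this array stood at 0.833 times those of untreated R6/2 array 2, within 5%, and those of treated R6/2 array 3 at the same multiple of untreated R6/2 array 3. Gene rows showed no such sharing, and control rows of these arrays are no independent measure of RNA quality. The 3′ control for 18S ribosomal RNA had a signal of 59.1 to 92.9 in treated R6/2. It was 70.9 to 128.1 in treated wild type and, lower than in either, 28.2 to 44.5 in untreated wild type (exact permutation test of treated R6/2 against untreated wild type, two-sided p = 0.1, the smallest that 3 against 3 allow). The count of probe sets past the threshold was 72 without treated R6/2 array 1 and 89 without array 3. It was 426 without array 2, 79 without untreated wild type array 2, 74 without array 3 and 150 without array 1. Of 83 named genes past the threshold, 32 stayed past it without treated R6/2 array 1. None changed sign when any 1 of the 9 arrays was left out. Their groups do not overlap, so this was fixed in advance and is no measure of stability. The labels do not say that each array is a separate animal, so p-values measure only the spread between these samples.

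The distance between whole profiles was taken as the median size of the log2 difference over all probe sets tested. It was 0.212 to 0.284 over the 9 pairs of a treated R6/2 and an untreated wild type array. Pairs within treated R6/2 lay 0.163 to 0.225 apart, and pairs within untreated wild type 0.158 to 0.192. The ranges overlap at their edges, so that the most alike pair across groups was closer than the least alike pair of treated R6/2 arrays. The overlap came from treated R6/2 array 2, about as far from its own group as from untreated wild type. It lay 0.220 and 0.225 from treated R6/2 arrays 1 and 3 and 0.212 to 0.228 from untreated wild type arrays. Treated R6/2 arrays 1 and 3 lay 0.244 to 0.284 from untreated wild type arrays. Pairs of a treated and an untreated wild type array lay 0.182 to 0.275 apart, a range that overlaps that of treated R6/2 against untreated wild type. In the same fit 7 probe sets passed between treated and untreated wild type (0.0939%) and 117 between treated R6/2 and treated wild type (1.57%). These comparisons share arrays with the main one, so their counts are set side by side and not as independent evidence.

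Most of the genes of striatal projection neurons that could be tested fell. Of 28 genes on the list, 12 were tested, and 9 of these (75.0%) were lower in treated R6/2 and none higher, against 2.36% of all probe sets lower. The counts of falls in the lists that follow are to be read against the same 2.36%. All 12 estimates were below 0, with a median of -0.69 on the log2 scale. The summed signal of the 12 was 2413.7, 2468.7 and 2686.8 on the treated R6/2 arrays, against 4898.2, 5238.6 and 5607.6 on the untreated wild type arrays. In a bulk sample, fewer cells of a type and less RNA per cell cannot be told apart. Rgs9, Cnr1, Actn2, Rxrg and Chrm4 were too dim to be tested, and the dopamine receptor Drd1, the adenosine receptor Adora2a and Ppp1r1b (DARPP-32) were not analysed here.

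Penk encodes proenkephalin, the peptide precursor of the striatal neurons that project to the external pallidum. Its signal was 654.5, 602.5 and 674.9 on the treated R6/2 arrays, against 1786.6, 1786.6 and 1969 on the untreated wild type arrays. All R6/2 values lay far below the lowest wild type value, and the change was -1.52 ± 0.09 (SE), 2.87-fold lower, with an adjusted p of 1.84e-05, the smallest of the comparison. A second, dimmer Penk probe set gave -1.69 ± 0.25. Treated wild type brain had 1978.9, 1801.2 and 2076.5, close to untreated wild type, and untreated R6/2 brain averaged 804 ± 167 (SD, n = 4).

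Drd2, the dopamine receptor of the same neurons, had 57.8, 48.5 and 49.8 in treated R6/2 and 96.4, 90.1 and 87.4 in untreated wild type (-0.81 ± 0.14, adjusted p = 0.00949). Tac1, the precursor of substance P in the neurons of the other striatal output pathway, fell less, with 114, 112.9 and 123.6 in treated R6/2 against 157, 193.9 and 194.6 in untreated wild type (-0.63 ± 0.12, adjusted p = 0.0225). Its groups did not overlap, yet the call was lost without treated R6/2 array 1 or 3 or untreated wild type array 2 or 3, with changes of -0.58 to -0.67. Pdyn, the precursor of dynorphin, gave a divided picture. Its dimmer probe set read 4.5, 30.9 and 3.9 in treated R6/2 against 50.1, 46.5 and 51.2 in untreated wild type (-2.59 ± 0.61, adjusted p = 0.0431), while its brighter one read 75, 74.5 and 54.4 against 67.4, 63.8 and 92.8 (-0.13 ± 0.18, adjusted p = 0.728). The call on the dimmer probe set held in 1 of the 9 fits that left out an array. Its treated R6/2 mean, 13.1, was below 25, the level at which dim probe sets were left out of the test.

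Genes of signalling proteins in these neurons also fell. Hpca, which encodes the calcium sensor hippocalcin, had 575.1, 614 and 588.1 in treated R6/2 and 1059.4, 1123.7 and 1259 in untreated wild type (-0.95 ± 0.09, adjusted p = 0.000389). The R6/2 values lay close together and far below all wild type values. Rasgrp2, a calcium-responsive activator of the small GTPase Rap, had 77.1, 83.8 and 78.3 in treated R6/2 and 152.5, 157.8 and 158.3 in untreated wild type (-0.97 ± 0.11, adjusted p = 0.00101). Arpp19, an inhibitor of the phosphatase PP2A, had 82.8, 114.3 and 73.6 against 340.6, 422.2 and 370.3 (-2.09 ± 0.17, adjusted p = 0.000212). Its second probe set did not pass (-0.43 ± 0.20, adjusted p = 0.261), so the size of the change in Arpp19 is uncertain. The remaining members that passed were the phosphodiesterase Pde1b and the phosphatase Ptpn5, both at -0.67, and Rgs2 at -0.64. Strn at -0.71 and Foxp1 at -0.44 did not pass. Leaving out treated R6/2 array 1 or 3, or untreated wild type array 2 or 3, left 5 members past the threshold rather than 9, as did a fit of all 13 arrays. For Penk, Drd2, Hpca, Rasgrp2 and Arpp19 the difference from treated wild type also passed (adjusted p of 1.06e-05 to 0.00609).

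Rgs4, a brake on G protein signalling in striatum and cortex, had 45.2, 57.4 and 60.3 in treated R6/2 and 150.8, 181.2 and 175.9 in untreated wild type (-1.65 ± 0.18, adjusted p = 0.000886). Treated wild type lay between, at 75.5, 120.7 and 101.9.

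**Figure D2:**
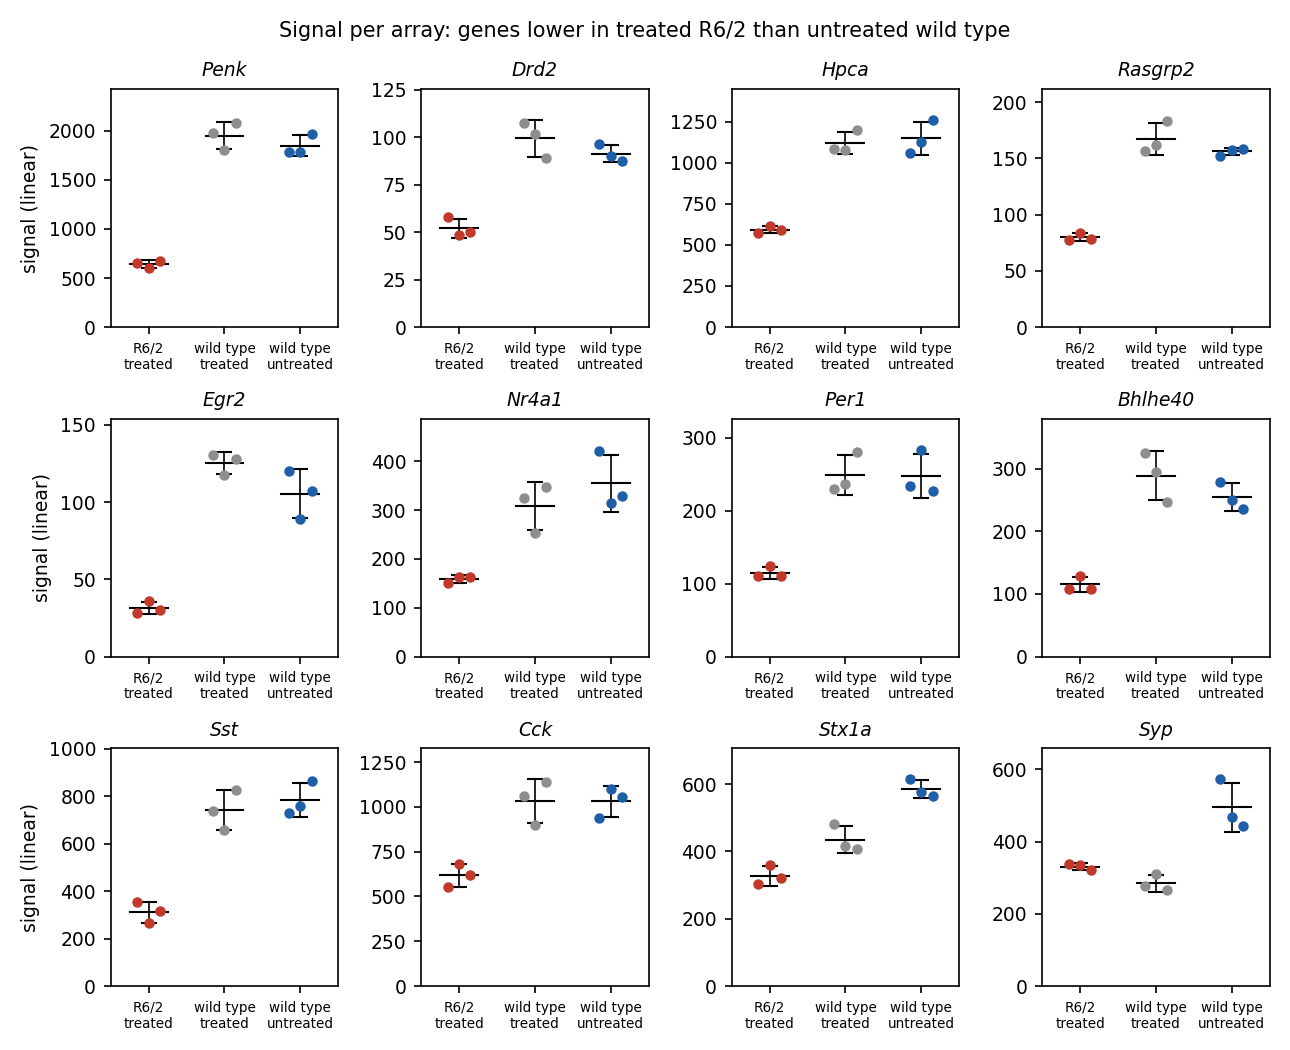
Signal on each array for 12 genes lower in treated R6/2, on linear axes that start at 0; points are arrays, horizontal bars the mean and whiskers the SD of 3 arrays. For Penk, Egr2, Per1 and Sst treated wild type lies with untreated wild type, while for Stx1a it lies between the other groups and for Syp at or below treated R6/2.

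The transcription factors that neurons induce within minutes of activity, and the enzymes and peptides induced after them, were tested as separate lists. Of 15 immediate early factors tested, 4 passed and all were lower (2.36% of all probe sets were lower), with 6 estimates above 0, 9 below and a median of -0.31. Egr2, a zinc finger factor, had the largest change, with 28.1, 36 and 30.4 in treated R6/2 against 120.1, 88.8 and 107.4 in untreated wild type (-1.74 ± 0.15, adjusted p = 0.000266). Nr4a1, an orphan nuclear receptor, had 150, 163.6 and 163.8 against 421.7, 314.2 and 328.1 (-1.14 ± 0.15, adjusted p = 0.00202). For both, every R6/2 array lay far below the lowest wild type array. Egr1 gave -0.80 ± 0.14 (adjusted p = 0.0147) and Klf10 -0.64 ± 0.14 on its brighter probe set and -0.99 ± 0.21 on its dimmer one. Fos at -0.45, Jun at 0.07, Fosb at 0.26 and Atf3 at 0.47 did not pass. The probe sets of Junb disagreed, with the brighter at 0.02, not passed, and the dimmer at -1.34 ± 0.28 (adjusted p = 0.0276), so that 5 of the 15 genes had some probe set past the threshold. With treated R6/2 array 1 or 3, or untreated wild type array 2, left out, 2 factors passed rather than 4.

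Among 12 activity-induced effectors, 3 fell and all 12 estimates were below 0, with a median of -0.32. Per1, which belongs to the clock as well, is described below with it. Dusp1 and Dusp6, phosphatases that switch off MAP kinases, fell by 0.60 ± 0.14 and 0.53 ± 0.12 (adjusted p of 0.0433 and 0.0351). Bdnf at -0.28, Homer1 at -0.29 and Nptx2 at -0.34 did not pass. A single effector passed, 1 rather than 3, without treated R6/2 array 1 or 3 or without any 1 untreated wild type array.

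The circadian clock is a loop in which the factors Clock and Arntl drive Per and Cry genes whose proteins repress them, with outputs such as Dbp. Of 18 clock genes tested, 5 were lower in treated R6/2 (2.36% of all probe sets were) and none higher, with 12 estimates below 0 and a median of -0.37. Dbp, an output factor, had 24.1, 39.3 and 31.3 in treated R6/2 and 64.7, 91.3 and 109.1 in untreated wild type (-1.48 ± 0.23, adjusted p = 0.00712). Bhlhe40, a repressor in the loop, had 108.2, 129.3 and 108 against 279.1, 249.5 and 235.8 (-1.15 ± 0.13, adjusted p = 0.00103). Per1 had 110.3, 124.1 and 110.3 against 233.8, 282.8 and 227.3 (-1.11 ± 0.13, adjusted p = 0.00101). In these 3 genes the R6/2 and wild type values were far from overlapping, and treated wild type lay with untreated wild type (Per1 229.8 to 280.7). Nr1d2 and Rora, nuclear receptors that regulate Arntl, fell by 0.57 ± 0.12 and 0.54 ± 0.12. The activators themselves did not pass, with Clock at 0.06 and Arntl at 0.22, nor did Per2 at -0.89, Cry2 at -0.45 or the repressor Nfil3 at 1.07. The labels give no hour of harvest. Leaving out treated R6/2 array 1 or 3, or untreated wild type array 2 or 3, left 3 clock genes past the threshold.

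Promoter sequences are shown for 3 of the genes that fell, since cAMP response elements (CRE, TGACGTCA) bind factors activated by neuronal activity and E-boxes (CACGTG) bind the clock factors. Both motifs read the same on both strands and neither contains the other. The windows run from 250 bases before to 50 bases after the gene start, in RefSeq's GRCm38.p6, printed 5′ to 3′ on the gene's strand with the motif in capitals. Where a gene had several listed starts, a start with the most copies of these motifs was chosen for printing. Per1 lies at chr11:69098699-69098998 on the plus strand, for 1 of its 2 listed starts, and its E-box begins 166 bases before the start. Egr2 lies at chr10:67535249-67535548 on the plus strand, for 1 of its 5 listed starts, with an E-box that begins 27 bases before it. Sst lies at chr16:23890795-23891094 on the minus strand, with a CRE that begins 48 bases before the start.
Per1: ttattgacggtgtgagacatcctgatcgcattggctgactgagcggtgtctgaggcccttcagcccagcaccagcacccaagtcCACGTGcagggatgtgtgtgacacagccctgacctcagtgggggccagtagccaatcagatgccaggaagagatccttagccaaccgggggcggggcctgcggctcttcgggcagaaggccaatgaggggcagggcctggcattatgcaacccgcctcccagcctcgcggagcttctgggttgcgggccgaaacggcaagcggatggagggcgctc
Egr2: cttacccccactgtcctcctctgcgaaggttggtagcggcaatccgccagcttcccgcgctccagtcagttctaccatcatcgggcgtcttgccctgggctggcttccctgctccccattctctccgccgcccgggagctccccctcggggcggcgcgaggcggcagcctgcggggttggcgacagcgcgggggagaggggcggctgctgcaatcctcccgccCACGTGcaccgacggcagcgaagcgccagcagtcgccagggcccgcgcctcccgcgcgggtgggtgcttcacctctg
Sst: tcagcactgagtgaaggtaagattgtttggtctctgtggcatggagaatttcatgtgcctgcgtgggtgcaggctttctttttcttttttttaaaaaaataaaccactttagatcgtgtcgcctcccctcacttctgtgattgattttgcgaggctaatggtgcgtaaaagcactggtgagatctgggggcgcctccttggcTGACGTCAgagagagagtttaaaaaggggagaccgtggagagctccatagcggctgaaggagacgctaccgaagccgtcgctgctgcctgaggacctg
The CRE stood in 5 of 179 listed promoters of the genes that fell (2.79%), in 3 of 90 of those that rose (3.33%) and in 588 of 32851 mouse promoters (1.79%). The E-box stood in 16 of 179 (8.94%), 5 of 90 (5.56%) and 2349 of 32851 (7.15%). The promoters of 116 genes that fell and 48 that rose were listed. The genes that fell with a CRE in this window were Dio2, Dusp1, Slc25a25, Sst and Sstr2. A match is only a run of letters in this window and no evidence of binding.

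Peptides of interneurons and of the hypothalamus formed the next group. Of 19 tested, 5 fell and none rose, with 17 estimates below 0 and a median of -0.48. Sst encodes somatostatin, made by a class of inhibitory interneurons in cortex and striatum. Its signal was 352.3, 265.2 and 315.4 in treated R6/2, against 730.8, 757.7 and 865.9 in untreated wild type (-1.34 ± 0.13, 2.53-fold lower, adjusted p = 0.000349). Treated wild type had 738.1, 658.5 and 825.6, again clear of R6/2. Npy, which the same striatal interneurons also make, had 216, 165.3 and 295.9 in treated R6/2 and 375.9, 410.2 and 440.2 in untreated wild type (-0.89 ± 0.18, adjusted p = 0.0264). Cck, the cholecystokinin precursor of many cortical neurons, had 554.2, 679.7 and 617.7 against 935.9, 1100.4 and 1055.4 (-0.74 ± 0.12, adjusted p = 0.00727). Oxt, the hypothalamic oxytocin precursor, fell by 0.92 ± 0.14, and Chga, a secretory granule protein, by 0.58 ± 0.11 on the brighter of its probe sets (-0.17 on the other, not passed). Hcrt, the orexin precursor of the lateral hypothalamus, was among the 15 largest falls, with 73.3, 34.8 and 52 in treated R6/2 against 130, 136.9 and 140.7 in untreated wild type (-1.41 ± 0.22, adjusted p = 0.00703). The somatostatin receptor Sstr2 gave -0.48 on its brighter probe set, not passed, and -0.67 ± 0.15 on another (adjusted p = 0.0396). Cort at -0.76, Vip at -0.67, Scg2 at -0.06 and Pomc at 0.21 did not pass. Without untreated wild type array 2 or 3, 3 of the 5 listed peptides passed.

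Most genes of glutamate and GABA synapses, receptors and the enzymes and transporters of both transmitters, did not pass. Of 19 tested, 2 fell, both receptor subunits, although 17 estimates were below 0 (median -0.20). Gabrd, the delta subunit of GABA receptors outside the synapse, had 9.6, 23.2 and 9.2 in treated R6/2 against 54.7, 56.3 and 61 in untreated wild type (-2.17 ± 0.37, adjusted p = 0.0119). Its R6/2 values were below 25, the level at which dim probe sets were left out of the test. Gria3, an AMPA receptor subunit, had 63.5, 62.4 and 71.5 in treated R6/2 against 124.5, 140.2 and 152.3 in untreated wild type (-1.08 ± 0.16, adjusted p = 0.00551). Treated wild type was also low for Gria3, at 69.9, 102.4 and 93.2, and treated R6/2 did not pass against it (adjusted p = 0.302). Grin2b at -0.76, Gad2 at -0.45 and Gad1 at -0.28 did not pass. The count was 5 without treated R6/2 array 2, and 1 without treated R6/2 array 1 or untreated wild type array 3.

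Calcium signalling links transmitter receptors to the kinases and pumps below them. Of 25 such genes tested, 5 fell and none rose, and 20 estimates were below 0, with a median of -0.39. Among the kinases and phosphatases, Ppp3ca, the catalytic subunit of calcineurin, had 921, 1120.2 and 1018.7 in treated R6/2 and 1494.5, 1672.3 and 1395 in untreated wild type (-0.58 ± 0.11, adjusted p = 0.0202). Camk2b, a subunit of the calcium/calmodulin kinase, gave -0.47 ± 0.11 (adjusted p = 0.0407), and its partner Camk2a gave -0.87 on its brighter probe set, not passed, and -0.95 ± 0.23 on the other (adjusted p = 0.048). The pumps Atp2b2 of the plasma membrane and Atp2a2 of the endoplasmic reticulum gave -1.08 ± 0.23 and -0.53 ± 0.11 (adjusted p of 0.0335 and 0.0298). Nrgn, the calmodulin-binding neurogranin of forebrain dendrites, had 325, 474.3 and 346.5 in treated R6/2 against 893.8, 709 and 619.3 in untreated wild type (-0.96 ± 0.20, adjusted p = 0.0258). The groups did not overlap in any of the 5, as in all 248 probe sets that passed and 27.0% of all tested. With a second probe set of the kinase Prkcb at -0.81 ± 0.13 (adjusted p = 0.00712; -0.37 on the brighter), 7 of the 25 genes had some probe set past the threshold. The count depended on single arrays: it was 0 without treated R6/2 array 1, treated R6/2 array 3 or untreated wild type array 2, 2 without untreated wild type array 3 and 8 without treated R6/2 array 2.

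The machinery of transmitter release fell in part. Of 19 genes tested, 4 fell and none rose, with 17 estimates below 0 and a median of -0.34. Stx1a, the syntaxin of the fusion complex, had 302.2, 360.8 and 321.4 in treated R6/2 against 615.5, 577.9 and 564.8 in untreated wild type (-0.84 ± 0.10, adjusted p = 0.0018). Syn2, which tethers vesicles, had 474.1, 506.8 and 505.5 against 864.5, 864.9 and 819.1 (-0.78 ± 0.14, adjusted p = 0.0148). Syp, a vesicle membrane protein, had 339, 333.8 and 320 against 572.8, 468 and 442.5 (-0.57 ± 0.12, adjusted p = 0.0251), and Syt5 gave -0.48 ± 0.12. Treated wild type lay between the groups for Stx1a, at 481, 416 and 408.3, and at or below the R6/2 level for Syp, at 276.8, 311.1 and 264.8. For Syn2 its values, 458.4, 626.4 and 715, spread from the R6/2 level upwards, and none of the 4 passed between treated R6/2 and treated wild type (adjusted p of 0.105 to 0.51). Syp itself was lower in treated than in untreated wild type (adjusted p = 0.026). Snap25 at -0.17, Vamp2 at -0.08 and Rab3a at 0.20 did not pass. With treated R6/2 array 1 or 3, or untreated wild type array 2, left out, 1 gene passed, and 2 did without untreated wild type array 1 or 3.

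Genes of cortical and hippocampal neurons went the same way, with 4 of 13 lower, none higher and all 13 estimates below 0 (median -0.47). Wfs1, a membrane protein of the endoplasmic reticulum marking hippocampal field CA1 and the upper cortex, had 183.5, 164.1 and 143.9 in treated R6/2 and 317.1, 358 and 371.3 in untreated wild type (-1.09 ± 0.13, adjusted p = 0.00118). Crym, a thyroid hormone binding protein of cortex and striatum, gave -1.07 ± 0.21 (adjusted p = 0.0222). Mef2c, an activity-regulated transcription factor, gave -0.48 ± 0.12 on its brightest probe set, and its other 3 gave -0.45 to -0.61, of which 2 passed. Nrgn, given above, was the remaining member. The count was 1 without treated R6/2 array 1, treated R6/2 array 3 or untreated wild type array 2, and 2 without untreated wild type array 1 or 3. Of 10 markers of cerebellum and other regions, 2 were lower. Prkcd, the kinase that marks thalamic relay neurons, had 183.1, 185.3 and 231.7 in treated R6/2 and 423.2, 380.4 and 410.1 in untreated wild type (-1.02 ± 0.13, adjusted p = 0.00202). A second Prkcd probe set gave -1.14 ± 0.13. Reln, secreted by cerebellar granule cells and cortical interneurons, gave -0.91 ± 0.17 on the brighter probe set and 0.43 on the dimmer one, which did not pass. Purkinje cell and granule cell markers Pcp2 at -0.08 and Neurod1 at -0.09 did not pass. Of these regional markers 1 passed without treated R6/2 array 1, treated R6/2 array 3 or untreated wild type array 3.

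Of 23 markers carried by all neurons, 2 passed, Syp and Camk2b, both lower, with 15 estimates below 0 and a median of -0.14. At an unadjusted p under 0.05, 7 were lower and 1 was higher, beside 1431 of all 7453 probe sets in either direction. Their summed signal was 16419.4 to 18116.4 in treated R6/2 and 18485.6 to 18987.6 in untreated wild type, so the groups did not overlap. Estimates that did not pass ran from -0.69 for the kinesin Kif5c and -0.53 for the neurofilament Nefm to 0.45 for the neurofilament Nefl, with Map2 at -0.51 and Tubb3 at -0.16. The share of neurons in the samples was not tested as a part of the falls. Neither marker passed without treated R6/2 array 1, treated R6/2 array 3 or untreated wild type array 2, and 1 passed without untreated wild type array 1 or 3 or treated wild type array 1 or 2.

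Myelin genes, made by oligodendrocytes, gave 4 falls among 14 tested and no rise, with 11 estimates below 0 and a median of -0.23. Mal, a lipid raft protein of myelin, had 167.3, 210.9 and 155.2 in treated R6/2 against 302.8, 332.7 and 287.3 in untreated wild type (-0.80 ± 0.14, adjusted p = 0.0131). Car2, the oligodendrocyte carbonic anhydrase, gave -0.67 ± 0.12 (adjusted p = 0.0171), and Ugt8a, the enzyme of galactosylceramide synthesis, -1.11 ± 0.23 (adjusted p = 0.0298). Mobp, a structural protein of compact myelin, was lower on all 4 of its probe sets, by 0.80 to 1.15. The main proteins of myelin were less changed, with Mbp at -0.32, Mag at -0.23 and Mog at -0.13, none passed. The summed signal of the 14 was 4277.8, 4813.3 and 5659.2 in treated R6/2, all below the 6277.3 to 6754.6 of untreated wild type. No myelin gene passed without treated R6/2 array 1, treated R6/2 array 3 or untreated wild type array 2, and 1 did without untreated wild type array 3.

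Cholesterol synthesis, which supplies myelin and synapses, showed 2 falls among 13 genes, with 11 estimates below 0 and a median of -0.48. Sqle, the squalene epoxidase, had 125.4, 158.8 and 187 in treated R6/2 against 265.8, 251.7 and 237.2 in untreated wild type (-0.70 ± 0.14, adjusted p = 0.0276). Idi1, the isopentenyl diphosphate isomerase, had 77.9, 101 and 79.8 against 121.5, 149.8 and 143.7 (-0.69 ± 0.14, adjusted p = 0.0296). Nsdhl, a sterol dehydrogenase, gave -0.51 on its brighter probe set, not passed, and -0.81 ± 0.16 on another (adjusted p = 0.0254). Hmgcs1 at -0.44, Fdps at -0.48, Dhcr7 at -0.54 and Mvd at -1.52 were on the same side of 0 and did not pass. The count was 5 without treated R6/2 array 2, 1 without treated R6/2 array 3 or untreated wild type array 1, and 0 without treated R6/2 array 1 or untreated wild type array 2 or 3.

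Genes induced by glucocorticoids, with the metal-binding metallothioneins, gave 5 falls among 13 and no rise (median -0.30). Mt1 had 515.1, 575.8 and 496.8 in treated R6/2 against 946.8, 1153.1 and 925.4 in untreated wild type (-0.93 ± 0.12, adjusted p = 0.00202). Mt2 fell by 0.44 ± 0.09, while the neuronal and astrocytic Mt3 at 0.53 did not pass. Sgk1, a kinase induced by corticosteroids, had 366.9, 345.5 and 368 against 692.3, 535 and 487.1 (-0.65 ± 0.13, adjusted p = 0.0252). Klf9, a corticosteroid- and thyroid-induced factor, gave -0.60 ± 0.10 (adjusted p = 0.00806), and Per1 is the fifth. Fkbp5 at -0.28 and Ddit4 at -0.30 did not pass. Leaving out treated R6/2 array 1 or 3, or untreated wild type array 1 or 2, left 3 members past the threshold.

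The proteins the drugs act on were examined one by one. Ache, the acetylcholinesterase that tacrine inhibits, had 326.1, 301.7 and 276.6 in treated R6/2 against 290.1, 249.8 and 294.8 in untreated wild type, and the groups overlapped (0.12, 95% interval -0.21 to 0.44). Maoa, the target of moclobemide, had 156.2, 121.4 and 116.9 against 119.6, 98.5 and 104.7 (0.28, 95% interval -0.09 to 0.65). Neither passed, and the intervals, on the log2 scale, do not show that the levels were alike. Of 9 genes of this list, 1 passed: Chrm1, the main muscarinic receptor of forebrain, had 103, 129.8 and 128 in treated R6/2 against 208.1, 194.7 and 173.4 in untreated wild type (-0.68 ± 0.14, adjusted p = 0.0254). Treated wild type lay between, at 141.7 to 177.8. The Chrm1 call was lost without any 1 of the treated R6/2 arrays 1 and 3 or the untreated wild type arrays, with changes of -0.57 to -0.75.

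Creatine is taken up by the transporter Slc6a8, made by Gatm and Gamt, and phosphorylated by the kinases Ckb and Ckmt1. Of these 5, Slc6a8 passed, with 107.2, 109.5 and 76.2 in treated R6/2, 113.8, 130.9 and 123.9 in treated wild type and 159.9, 147.7 and 152.8 in untreated wild type (-0.67 ± 0.15, adjusted p = 0.0359). Both treated groups lay below every untreated wild type array, but treated wild type did not pass against untreated wild type (limma adjusted p = 0.338). Untreated R6/2, which had no drugs by its titles, was also low on average, at 113.3, 148.9, 104.7 and 134.3. In a fit of all 13 arrays it did not pass against untreated wild type (limma adjusted p = 0.2). The Slc6a8 call held in 3 of the 9 fits that left out an array. Ckb, the cytosolic brain kinase, overlapped between groups (-0.06, 95% interval -0.41 to 0.29). Ckmt1, the mitochondrial kinase, gave -0.46 (adjusted p = 0.0752) on its brighter probe set and 0.44 on the other. Gatm at 0.06 did not pass, and the probe sets of Gamt disagreed, at 0.46 and -0.33, neither passed.

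Few genes of energy metabolism and protein quality control passed the threshold. Of 52 genes of oxidative phosphorylation none passed limma's adjusted threshold, with 26 estimates above 0, 26 below and a median of 0.00. At an unadjusted p under 0.05, 1 was higher and 4 were lower, beside 1431 of all 7453 probe sets in either direction. The unadjusted counts of the lists that follow are to be read against the same share. Cox7a2, a subunit of cytochrome oxidase, came nearest the threshold, with 1084.2, 1019.6 and 962.4 in treated R6/2 against 1208.9, 1353.4 and 1359.2 in untreated wild type (-0.35 ± 0.09, adjusted p = 0.0682). Of 15 glycolysis genes none passed by limma (median -0.07), with 1 higher and 2 lower at an unadjusted p under 0.05. Aldoc, the brain and astrocyte aldolase, was at -0.38. Of 32 proteasome genes, Psmd11, a subunit of the regulatory lid, rose, with 550.4, 519.6 and 486 in treated R6/2 against 279, 367.7 and 352.8 in untreated wild type (0.65 ± 0.13, adjusted p = 0.0234). Treated wild type was as high for it, at 448 to 561.7, and its other probe sets gave 0.73 and 0.16 and did not pass. The Psmd11 call held in 5 of the 9 fits that left out an array. Of the 32 proteasome estimates 23 were above 0 and 9 below, with a median of 0.07. Groups did not overlap in 7 that were higher (14.1% of all probe sets) and 2 that were lower (12.9%). The proteasome sum was 10254 to 11259.3 in treated R6/2 and, without overlap, 9919 to 10213.6 in untreated wild type. Among 41 chaperones, 3 fell (7.32%, against 2.36% of all probe sets lower) and the list's median was -0.01. Of the 41 estimates, 20 were above 0 and 21 below. At an unadjusted p under 0.05, 5 chaperones were higher and 3 lower. Hspa1a and Hspa1b, near-identical copies of the stress-induced heat shock protein whose probes may read both, gave -1.04 ± 0.19 and -1.39 ± 0.27. Hspa1a had 89.7, 77.4 and 108.8 in treated R6/2 against 176.3, 195.2 and 191.3 in untreated wild type. Dnajb5, a co-chaperone, gave -2.09 ± 0.45 (adjusted p = 0.0309), with values of 12 to 54.4 against 86.5 to 119.6. The chaperone count was 0 without treated R6/2 array 1 or untreated wild type array 2 or 3.

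**Figure D3:**
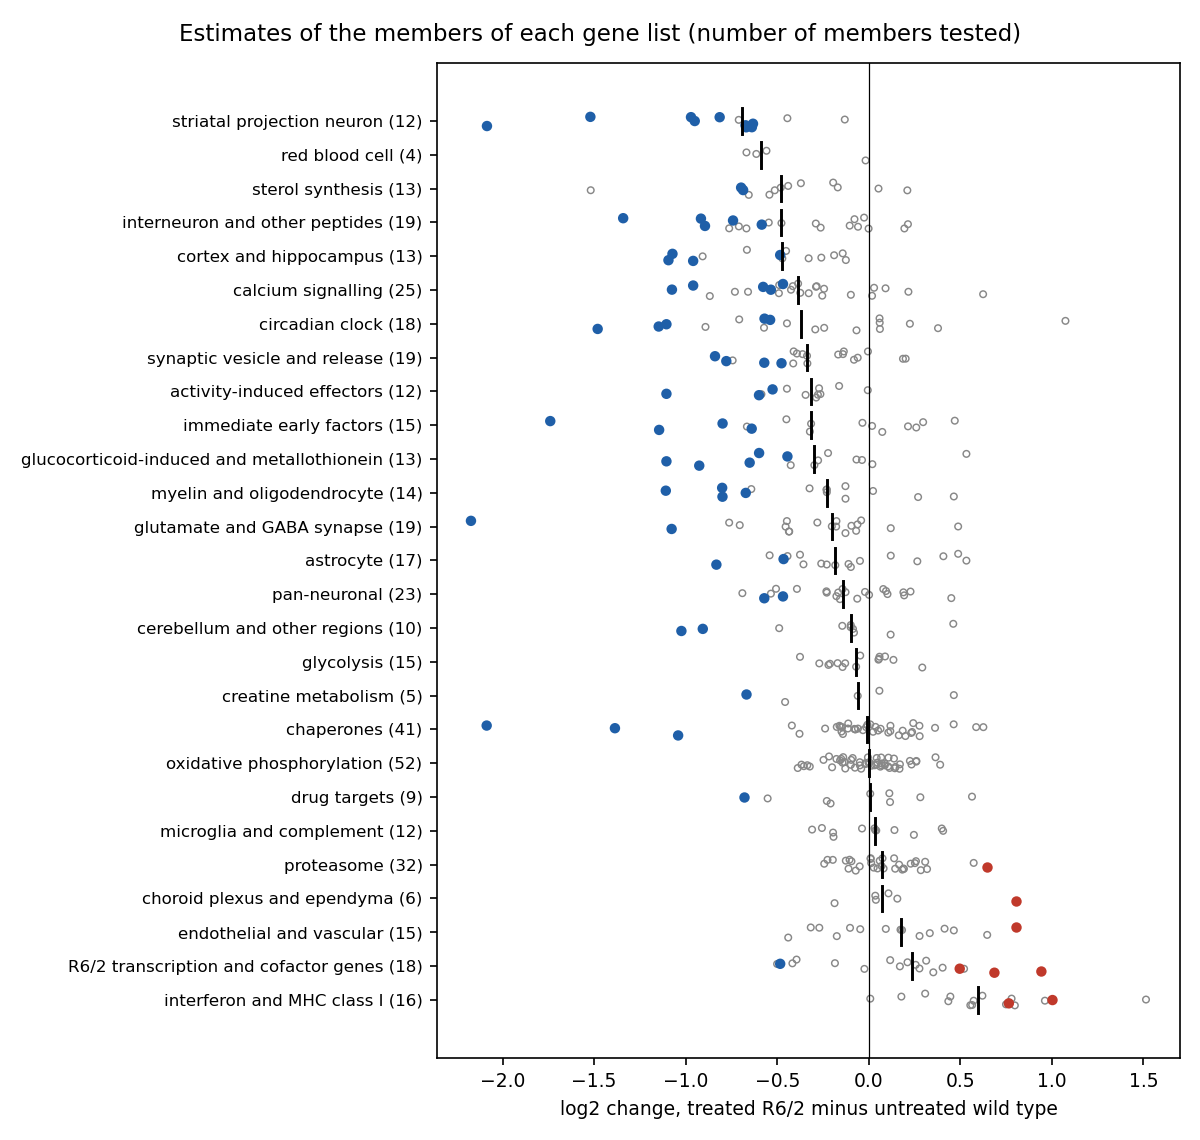
Each row is a gene list with the number of members tested, and each point is the log2 change of 1 member, treated R6/2 minus untreated wild type. Filled points passed the threshold and vertical bars are medians, which run from -0.69 for striatal projection neuron genes to 0.60 for interferon and MHC class I genes.

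Interferon-induced and MHC class I genes stood at the other end. All 16 tested had estimates above 0, with a median of 0.60, and in 9 of them every treated R6/2 array lay above every untreated wild type array, beside 14.1% of all probe sets. At an unadjusted p under 0.05, 11 were higher, beside 1431 of all 7453 probe sets in either direction. Of the 16, 2, Ifitm3 and Gbp7, passed the adjusted threshold (0.966% of all probe sets were higher). Another 13 listed genes, Ifit1, Isg15, Usp18 and Mx1 among them, were too dim to be tested, so the direction of the list holds only for its brighter members. Ifitm3, a membrane protein that blocks virus entry, had 225.3, 173.2 and 204.3 in treated R6/2, 108.1, 132.6 and 127.9 in treated wild type and 124.3, 112.5 and 116.1 in untreated wild type (0.77 ± 0.13, adjusted p = 0.0125). Treated R6/2 stood above both wild type groups, and untreated R6/2 was at 186.7 to 193.2. Gbp7, an interferon-induced GTPase, had 59.4, 37.4 and 75.9 in treated R6/2, 86.2, 66.4 and 70.4 in treated wild type and 28.4, 29 and 25.4 in untreated wild type (1.00 ± 0.24, adjusted p = 0.046). The probe sets of H2-D1, an MHC class I heavy chain, ran from -0.03 to 0.64, and 1 of 3 passed, so that 3 of the 16 genes had some probe set past the threshold. H2-K2 at 1.51, Gbp3 at 0.96, Ifit3 at 0.80, Tap1 at 0.78 and B2m at 0.18 did not pass. The count was 0 without treated R6/2 array 1 or untreated wild type array 2 or 3, and 1 without treated R6/2 array 3, untreated wild type array 1 or any 1 treated wild type array.

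Lists for other cells bear on what the samples held. Of 12 microglia and complement genes none passed by limma and 2, Ctss and Cd14, were higher at an unadjusted p under 0.05. Over all probe sets 1431 of 7453 reached that level in either direction. The median of the 12 was 0.03, and their summed signal was 3242.9 to 3302.4 in treated R6/2 within the 2861.4 to 3463.6 of untreated wild type. Of 17 astrocyte genes, Agt, the angiotensinogen precursor, and Sparcl1, a secreted synapse-forming protein, fell, by 0.83 ± 0.18 and 0.47 ± 0.10. The list went both ways, with 5 estimates above 0 and 12 below, from -0.83 to 0.53, and a median of -0.18. At an unadjusted p under 0.05, 3 astrocyte genes were higher and 5 lower. Gfap at 0.27 did not pass, and the astrocyte sum was 12027 to 15112.3 in treated R6/2 against 14066.2 to 14688.7 in untreated wild type. When treated R6/2 array 1 or 3, or untreated wild type array 2 or 3, was left out, no astrocyte gene fell past the threshold, 1 did without untreated wild type array 1 or treated wild type array 2, and 4 did without treated R6/2 array 2. Of 15 endothelial and vascular genes and 6 of choroid plexus and ependyma, Igf2 alone passed, a growth factor made in the brain by the choroid plexus and meninges. Igf2 had 630.7, 541.5 and 623.9 in treated R6/2, 482.6, 470.8 and 470.1 in treated wild type and 393.1, 303.4 and 334.7 in untreated wild type (0.81 ± 0.11, adjusted p = 0.00345). The 3 groups did not overlap, with treated wild type in between. Ttr, the defining choroid plexus transcript, was at 0.04 and did not pass, while the choroid sum, Igf2 included, was 1344.2 to 1606.5 against 1081.4 to 1346.4, and the endothelial sum, which also holds Igf2, 2590.7 to 2767.9 against 2199.1 to 2297.2. The 4 red blood cell genes did not pass by limma, and none reached an unadjusted p under 0.05, at -0.67 for Hbb-b2 and -0.56 for Hba-a1, with sums of 1077.9 to 2326.6 in treated R6/2 and 2146.2 to 3711.4 in untreated wild type. No tested marker of these lists was at 0 on any array, and their part in the other results was not tested.

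Regulators of transcription linked to the R6/2 brain in earlier results on these data gave 3 rises and 1 fall among 18. Atad2b, a bromodomain ATPase, had 213.2, 239.4 and 237.5 in treated R6/2, 117.9, 139.8 and 103.1 in treated wild type and 126.9, 117.3 and 114.6 in untreated wild type (0.94 ± 0.13, adjusted p = 0.00339). Untreated R6/2 brain was as high, at 210 to 255.9. Nfya and Nfyc, subunits of the CCAAT-binding factor NF-Y, had the same pattern, Nfya with 98, 92.4 and 97 in treated R6/2 against 59.5, 65.1 and 54.4 in untreated wild type (0.69 ± 0.13, adjusted p = 0.0193). Nfyc had 295.1, 311.2 and 293.4 in treated R6/2 against 228.8, 206.1 and 203.3 in untreated wild type (0.50 ± 0.10, adjusted p = 0.0231), with a dim second probe set at -0.12 that did not pass. The third subunit, Nfyb, was at -0.39 and did not pass. Polr2a, the large subunit of RNA polymerase II, gave 0.40 on its brighter probe set, not passed, and 0.67 ± 0.14 on another (adjusted p = 0.0298). Mef2c is the member that fell, a call that held in 1 of the 9 fits that left out an array. This list was drawn from these samples, so its count is no independent evidence of direction. The count of rises was 1 without treated R6/2 array 1, treated R6/2 array 3 or untreated wild type array 3, and 2 without untreated wild type array 1 or 2. Mouse Htt itself was at -0.02 ± 0.11 (adjusted p = 0.93), and whether its probes lie in the exon the transgene carries was not tested, so it does not check the genotype labels. Of the sex-linked genes, Xist did not pass (0.40 ± 0.22).

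The 15 largest rises showed 2 patterns when treated wild type was set beside them. In the first, treated wild type was near or above the level of treated R6/2, with no difference between these 2 groups past the threshold. Actb, cytoplasmic actin, had 317.7, 269.1 and 276.3 in treated R6/2, 387.6, 290.4 and 261.8 in treated wild type and 144, 105.9 and 112.4 in untreated wild type (1.26 ± 0.16, adjusted p = 0.0021), and its second probe set gave 1.33. Otub1, a deubiquitinase, had 197.1, 217.6 and 159.7 in treated R6/2, 180.7, 195.2 and 161.6 in treated wild type and 70.6, 91.9 and 91.5 in untreated wild type (1.18 ± 0.15, adjusted p = 0.00213). Untreated R6/2 array 1 was high for both genes, at 295.3 and 168.2, while the other 3 untreated R6/2 arrays lay at 44.6 to 75.6 for Actb and 19.7 to 45.5 for Otub1. The 3′ actin control row moved the same way by less, averaging 2555 ± 95 in treated R6/2 and 2097 ± 32.1 in untreated wild type (SD, n = 3 each, exact permutation p = 0.1). Control rows of treated R6/2 arrays 1 and 3 were a fixed multiple of those of untreated R6/2 arrays, as given above. This row is therefore no independent check of Actb. Slc7a9, an amino acid transporter subunit, had the largest rise among probe sets past the threshold, with 45.9, 32.1 and 38.8 in treated R6/2 and 8.3, 20 and 12.3 in untreated wild type (1.60 ± 0.31, adjusted p = 0.0207). Its wild type values were below the level at which dim probe sets were left out.

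Gprasp1, a receptor sorting protein, at 1.28, the proteoglycan Sdc4 at 1.01, Tex2 at 0.98, the radial glia fatty acid binding protein Fabp7 at 0.94, the kinase scaffold Akap12 at 0.93 and the transcription factor Usf1 at 0.89 belong to the same pattern. For each of these, as for Actb, Otub1, Slc7a9 and Gbp7, treated R6/2 did not pass against treated wild type (adjusted p of 0.249 to 0.993). Uhmk1 at 1.07 and the nucleoside transporter Slc29a1 at 1.00 do too, but their other probe sets gave -0.44, 0.06 and -0.59 and did not pass. All untreated wild type values of the Slc29a1 probe set that passed, 14.6 to 22.6, were below 25. Between treated and untreated wild type only Actb, Otub1, Uhmk1 and Tex2 of this pattern passed (limma adjusted p of 0.0142 to 0.0216). The others did not (0.0512 to 0.166). Tex2 had 95.4 to 103.9 in treated wild type, above the 59.8 to 76.3 of treated R6/2. Akap12 had 39.9 to 49.6 in treated wild type, against 48.9 to 60 in treated R6/2 and 26.8 to 30.9 in untreated wild type. A fit of all 13 arrays also compared untreated R6/2 with untreated wild type. Untreated R6/2 was higher for Gprasp1, Uhmk1, Fabp7, Gbp7 and Tex2 (limma adjusted p of 0.00591 to 0.0406). For Actb, Otub1, Slc7a9, Sdc4, Akap12, Usf1 and Slc29a1 it did not pass (0.0558 to 0.704). In the second pattern treated wild type stayed with untreated wild type. Tyms-ps had 152.7, 160.4 and 119.6 in treated R6/2, 50.1, 55 and 59 in treated wild type and 75.5, 52.2 and 68.4 in untreated wild type (1.15 ± 0.17, adjusted p = 0.00586). It is a pseudogene copy of thymidylate synthase, and its probes may read the parent gene. Atad2b, given above, belongs here, and Myog, the myogenin of muscle, had 41.7, 47.2 and 41 in treated R6/2, 19.3, 22.7 and 25.8 in treated wild type and 20.6, 26.6 and 17.7 in untreated wild type (1.02 ± 0.23, adjusted p = 0.0407). Myog averaged 22.6 in treated and 21.6 in untreated wild type, below 25. It was tested only through the treated R6/2 arrays, where it was high, so the size of its rise is uncertain. Several of these calls leaned on single arrays. Of the 9 fits that left out an array, Gbp7 passed in 1, Myog and Slc29a1 in 2, Tex2 in 3, Sdc4 in 4, Fabp7 in 5 and Slc7a9, Gprasp1 and Akap12 in 6, while Actb, Otub1, Uhmk1, Usf1, Tyms-ps and Atad2b passed in all 9.

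**Figure D4:**
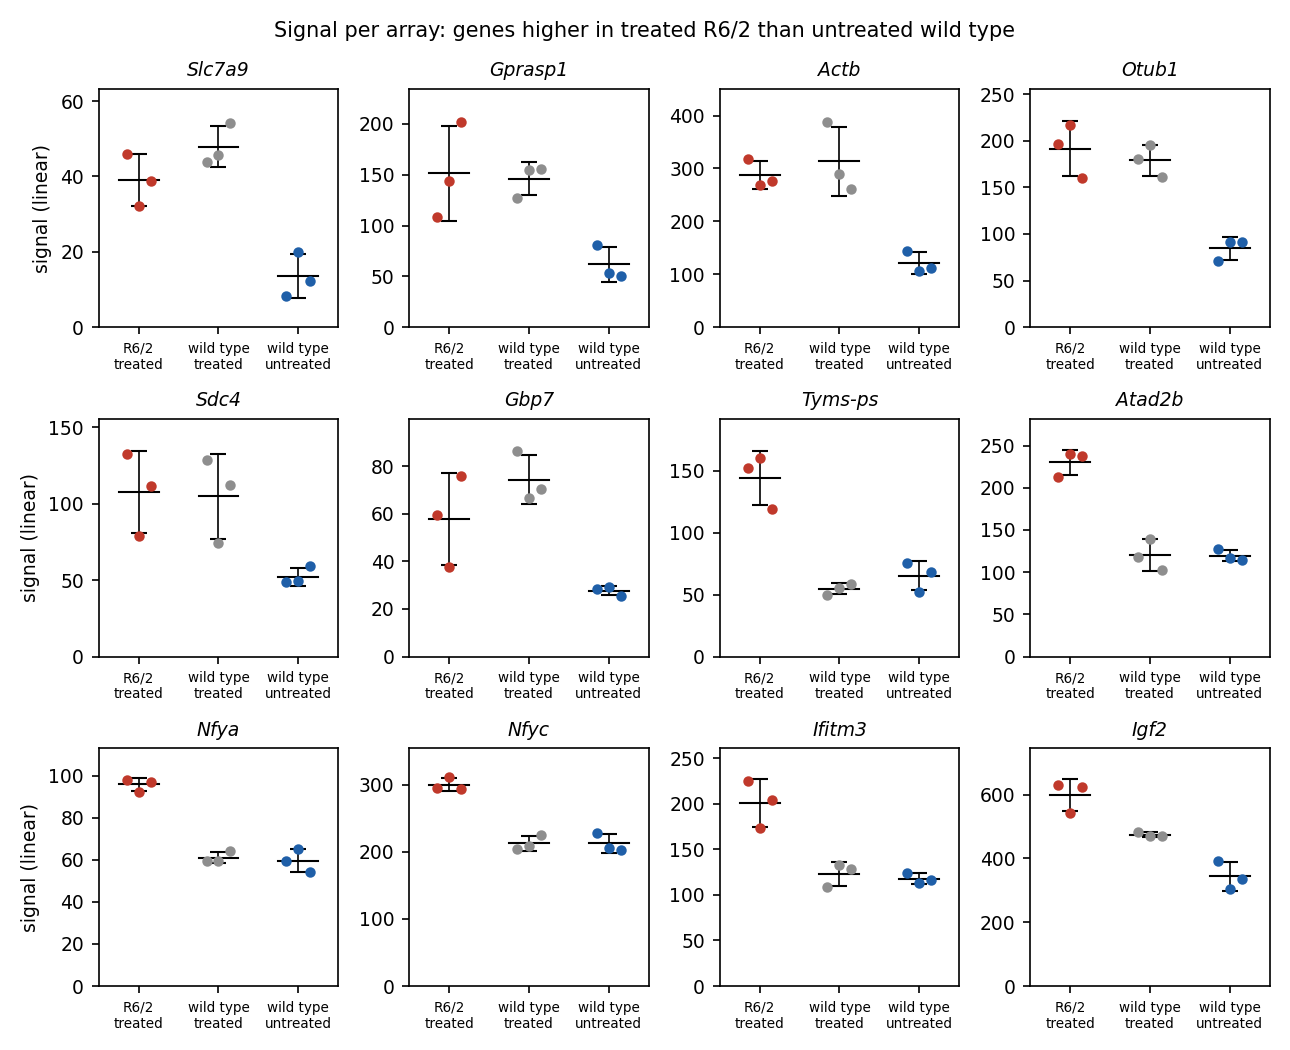
Signal on each array for 12 genes higher in treated R6/2 than in untreated wild type, on linear axes that start at 0; points are arrays, horizontal bars the mean and whiskers the SD of 3 arrays. For Slc7a9, Gprasp1, Actb, Otub1, Sdc4 and Gbp7 treated wild type is as high as treated R6/2, and for Tyms-ps, Atad2b, Nfya, Nfyc and Ifitm3 it lies with untreated wild type.

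Among the 15 largest falls were genes of no list. Epop, a partner of the Polycomb complex, had 26, 25.7 and 41.2 in treated R6/2, 118.9, 110.1 and 90.8 in treated wild type and 125.9, 156.6 and 134.1 in untreated wild type (-2.20 ± 0.20, 4.58-fold lower, adjusted p = 0.000266). The highest R6/2 value lay far below the lowest of either wild type group. B3gnt2, which builds the sugar chains of glycoproteins, had 11.5, 12 and 13.6 in treated R6/2 against 39.7, 63.7 and 75.9 in untreated wild type (-2.23 ± 0.27, adjusted p = 0.00148), and its second probe set, also dim, gave 0.19 and did not pass. All R6/2 values of B3gnt2, and of Myh7 next, were below 25, the level at which dim probe sets were left out, so both were tested through their wild type arrays and the sizes of their falls are uncertain. Myh7, the slow muscle myosin heavy chain, had 12.4, 21.8 and 15 against 34.9, 48.9 and 50.6 (-1.47 ± 0.26, adjusted p = 0.0131). Rab3b, a vesicle GTPase, gave -1.70 ± 0.37, and Plekho1, an adaptor of signalling at the membrane, gave -1.55 ± 0.30 with treated wild type as low as R6/2, at 17.2 to 24.6. Treated R6/2 averaged 24.1 for Rab3b and 19.4 for Plekho1, below 25. Plekho1 averaged 22.1 in treated wild type, so it was tested only through its untreated wild type arrays. Rab3b passed in 4 of the 9 fits that left out an array, Plekho1 in 5 and Myh7 in 6.

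Probe sets of the same gene did not always agree. Of the 211 genes past the threshold, 147 had 1 tested probe set and 64 had several. In 21 of these 64 the estimates had both signs, and in 6 all probe sets passed, Mobp among them. Of the 83 named genes past the threshold, 21 passed under each of the alternative settings that tested them. They were Penk, Drd2, Hpca, Rasgrp2, Arpp19 and Rgs4 among striatal and G protein signalling genes, Egr2, Nr4a1, Per1 and Bhlhe40 among activity and clock factors, and the peptides Sst, Cck and Oxt. Wfs1, Prkcd, Mt1 and Epop followed, with B3gnt2, which entered the test only through its wild type arrays and whose second probe set was on the other side of 0, and the rises were Atad2b, Tyms-ps and Igf2.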

How the data were processed

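Whole-brain RNA was read on Affymetrix MG-U74Av2 arrays. The authors deposited linear intensity values, 1 per probe set, and the software that made them is not given in the sources used here. As deposited, the trimmed mean (2% off either end) is 100.047 to 100.053 on these arrays, which shows a scaling to 100. Arrays were grouped by title. The 66 control rows were left out, values were floored at 3 (their 10th percentile) and log2 was taken. Array medians lay within 5.91% of their mean, under the rule of 10%, so no further scaling was done. Of 12422 gene probe sets, 7453 were tested, those whose mean reached the 40th percentile, a signal of 25.0. Means per group were fitted with limma 3.58.1 (R 4.3.3, eBayes with an intensity trend) on 9 arrays, those of treated R6/2, treated wild type and untreated wild type. In the main comparison treated wild type adds to the estimate of spread. The floor and the filter on dim probe sets were also taken over the 9 arrays, treated wild type included. P-values were adjusted by Benjamini-Hochberg over the 7453. Probe sets annotated to 1 gene numbered 10833, to several 396 and to none 1193; the annotation can be old.

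A gene in a list was read by its brightest probe set annotated to it alone. Genes were named by rule: the 15 largest changes in each direction among probe sets past the threshold, up to 6 members of each list past it or the 2 of smallest p where none passed, and all members tested of the creatine list with Ache, Maoa and Chrm1. List members given only as a log2 change were named outside this rule, after their values were seen. The members and lists were chosen with earlier results of these data known. On simulated data of this size, 79% of log2 changes of 1 and 26% of changes of 0.5 were called, as were 4 of 7253 unchanged probe sets. The number of arrays limits the precision.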

Additional observations from a re-analysis of the deposited data

How the results depend on the processing

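The count of probe sets past the threshold was 248. It was 77 with all 13 arrays in the fit, 129 with no filter on dim probe sets, 160 with no intensity trend and 642 with array weights, and it ranged from 72 to 426 when 1 array was left out. The arrays in the fit, the number of probe sets tested and the estimate of spread differ by construction in the first 3; for the array weights the cause was not tested, and treated R6/2 array 2 had the lowest weight of its group (0.518). It stayed within 1.5 times of the main count at 184 with the 6 arrays alone, 245 with the filter at the 60th percentile, 260 with a floor of 16, 248 with a floor of 1, 230 after quantile normalization and 281 after median scaling. Rises were 29.0% of the calls in the main fit, 14.9% after median scaling and 42.5% with array weights. The number of probe sets whose groups did not overlap, 2016, was 2577 to 3432 with 1 array left out, where fewer values make overlap rarer. None of the 83 named genes past the threshold changed sign in any alternative. With 1 array left out this was fixed in advance, since their groups do not overlap. No paired analysis was possible because the labels give no replicate numbers that groups share. Changes under about 0.5 on the log2 scale were mostly beyond the reach of 3 arrays a group.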
